A study of Mus musculus with 6 samples.

Results

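The collagen chain genes were examined in mouse hearts at day 14 after myocardial infarction (MI). A gene was taken as a member when its Ensembl identifier paired with a symbol made of Col, a type number, the letter a and a chain number, and when it had 10 or more reads summed over the 6 libraries. Of 54532 rows in the count table, 44 carried such a symbol and 41 met the read minimum. The 41 were 11 fibrillar chains, 6 basement membrane chains, 7 fibril-associated chains and 17 other chains. Just inside the minimum lay Col10a1 with 12 reads and Col17a1 with 16, and just outside it lay Col9a1 with 9, Col19a1 with 6 and Col6a4 with 5. The control group was 3 libraries from wild-type mice (WT), and it was set against 3 libraries of ACKR4_KO mice, which lack ACKR4, a scavenging receptor for chemokines. All 6 came from C57BL/6 mice aged 8 to 10 weeks, all after infarction, so no uninfarcted heart entered the comparison. The labels do not say how the knockout was made, which part of the heart was taken or whether a library held 1 animal or several, so the tests below measure the spread between these libraries.

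Collagens are proteins whose chains wind in threes into a triple helix. Fibrillar collagens, types I, III and V above all, form the banded fibrils that give an infarct scar its tensile strength, and cardiac fibroblasts are their main source. Type IV chains form the sheet-like network of basement membranes around vessels and cardiomyocytes, and fibril-associated collagens sit on the surface of fibrils and link them to other matrix. The remaining types include the beaded filaments of type VI, the short-chain networks of types VIII and X, the multiplexins of types XV and XVIII and several membrane-bound chains.

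Depth ran from 9422462 to 13910358 reads a library. The targeted gene, Ackr4, was counted 165, 151 and 169 times in WT and 4, 1 and 12 times in ACKR4_KO. The biological coefficient of variation over all genes tested was 11.7% within WT and 26.8% within ACKR4_KO. The 41 chains took 1.25%, 1.44% and 1.40% of all reads in the WT libraries, while ACKR4_KO gave 1.07%, 0.474% and 1.68%, each in the order of the replicate numbers, which holds for all values below. ACKR4_KO replicates 2 and 3 thus stood apart from each other, and the plot of fold changes shows each tested chain with and without them.

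Levels are given as CPM, reads scaled to the same library total, with edgeR's trimmed mean of M-values (TMM) as the scaling. The most abundant chain was Col3a1, the single chain of type III collagen, at a mean of 3449 CPM over the 6 libraries, followed by the type I chains Col1a2 and Col1a1 and the type IV chains Col4a1 and Col4a2. Divided by the length of the longest coding sequence, Col3a1 had a mean level of 785 CPM per kb, Col1a2 441, Col1a1 371, Col4a1 243, Col4a2 158 and Col6a2 133. Divided by the union of annotated exons, which counts retained introns, Col3a1 was again first with 351 CPM per kb, but Col1a1 came next with 247, then Col4a1 with 163 and Col1a2 with 146. The order of Col1a1 and Col1a2 thus depended on the length used. At the low end, 5 of the 41 chains did not reach the filter on low counts and were not tested.

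**Figure D1:**
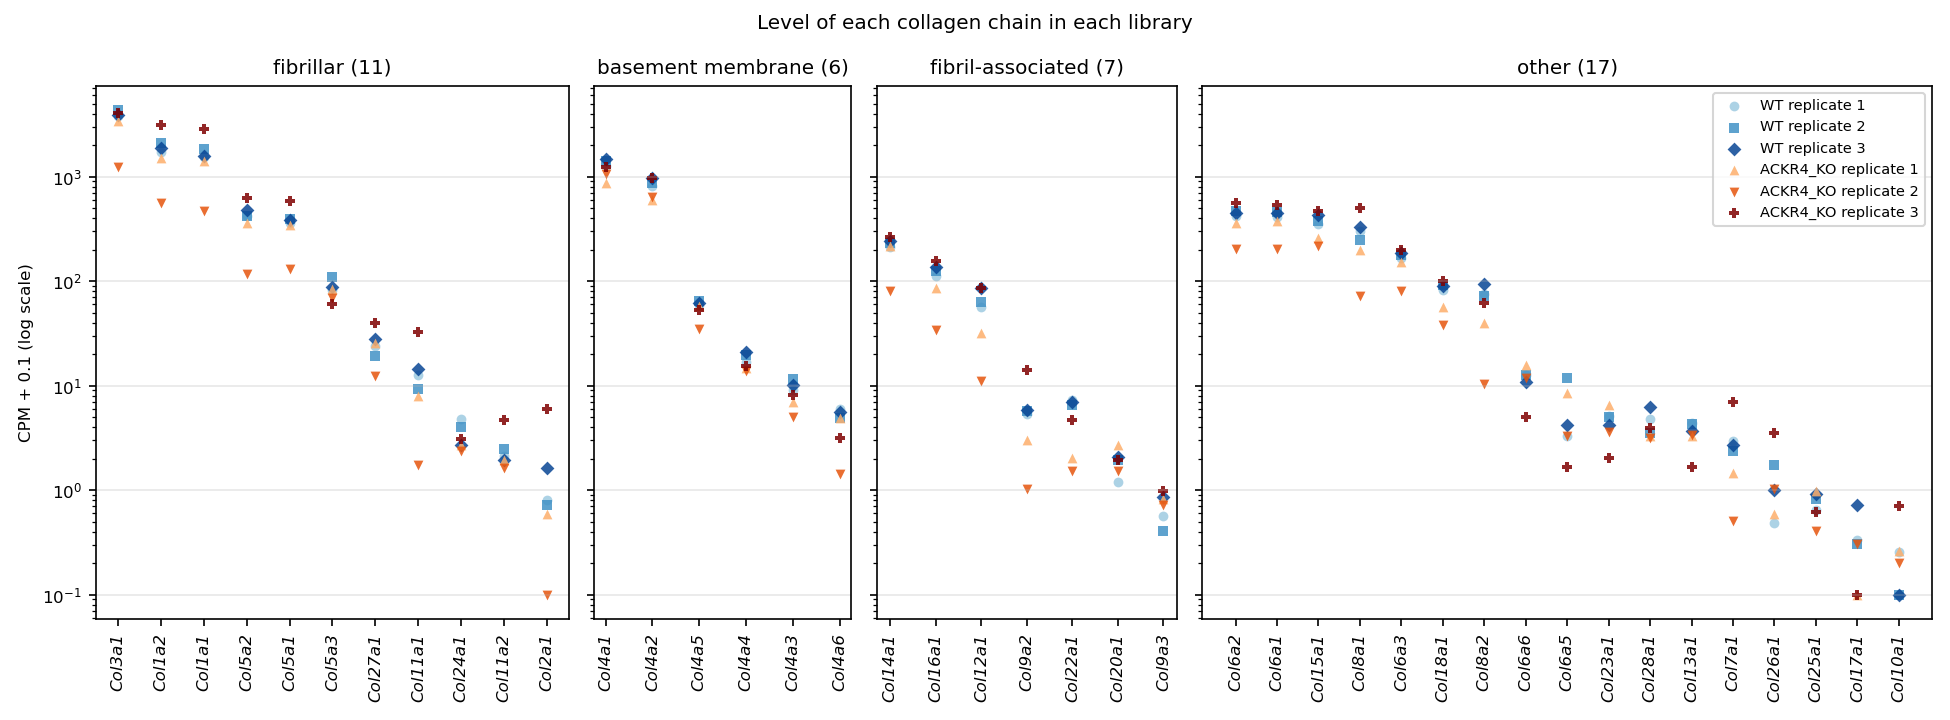
Level of each of the 41 collagen chains in each of the 6 libraries, grouped by class and ordered by mean level, as CPM plus 0.1 on a log scale. The 3 WT libraries lie close together for the abundant chains, while among the fibrillar chains ACKR4_KO replicate 2 is the lowest library for all but Col5a3 and ACKR4_KO replicate 3 is often the highest; the basement membrane chains are more tightly grouped.

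The genotypes were then compared. Of the 36 chains tested, 0 passed the adjusted threshold of 0.05 with edgeR (quasi-likelihood, Benjamini-Hochberg; background over all 14406 genes, 0%). None passed with limma-voom, with DESeq2 (background 0.234%) or with edgeR without the filter on low counts (background 0.0942%). The main edgeR fit also missed the targeted gene. Ackr4 was lower by -4.70 on the log2 scale, yet its edgeR adjusted p, the smallest of any gene, was 0.0990. DESeq2 called Ackr4 (adjusted p = 1.4e-18), while limma-voom called no gene at all. The absence of called chains by edgeR or limma-voom therefore cannot show that the chains were unchanged. At an unadjusted p under 0.05 by edgeR there were 4 chains, Col22a1, Col4a4, Col4a3 and Col5a3, all lower in ACKR4_KO, where 3.64% of all genes were lower and 3.81% higher at that level. Log2 fold changes, ACKR4_KO minus WT, were below 0 in 29 of the 36 chains, against 48% of all genes tested, with a median of -0.29 beside 0.01 for all genes; limma-voom gave 33 of 36. The groups did not overlap in 8 chains, all lower in ACKR4_KO, against a background of 7.63% of genes lower and 6.53% higher without overlap. These 8 were Col4a1, Col4a3, Col4a4, Col4a5, Col4a6, Col22a1, Col8a2 and Col13a1, so 5 of them belong to the basement membrane class.

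Outside that class the number of lower chains changed when a single library was left out. Without ACKR4_KO replicate 2, 20 of 38 chains tested were lower, with a median log2 fold change of -0.07, where 47.8% of all genes were lower. Without ACKR4_KO replicate 3, 34 of 37 were lower, with a median of -0.62, where 48.9% of all genes were lower. Of those 37, 15 were at an unadjusted p under 0.05 by edgeR, where 1846 of all 14756 genes were. None of the 37 passed the adjusted threshold by edgeR (smallest adjusted p = 0.0936). ACKR4_KO replicate 2 was the lowest of the 6 libraries in 27 of 36 chains, against 25.6% of all genes, and the highest in none. ACKR4_KO replicate 3 was the highest in 18 of 36, against 23.8% of all genes, and 17 chains had both replicate 2 lowest and replicate 3 highest, against 8.02% of all genes. The coefficient of variation of a chain had a median of 10.0% within WT and 51.8% within ACKR4_KO, where all genes had medians of 10.3% and 18.3%.

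**Figure D2:**
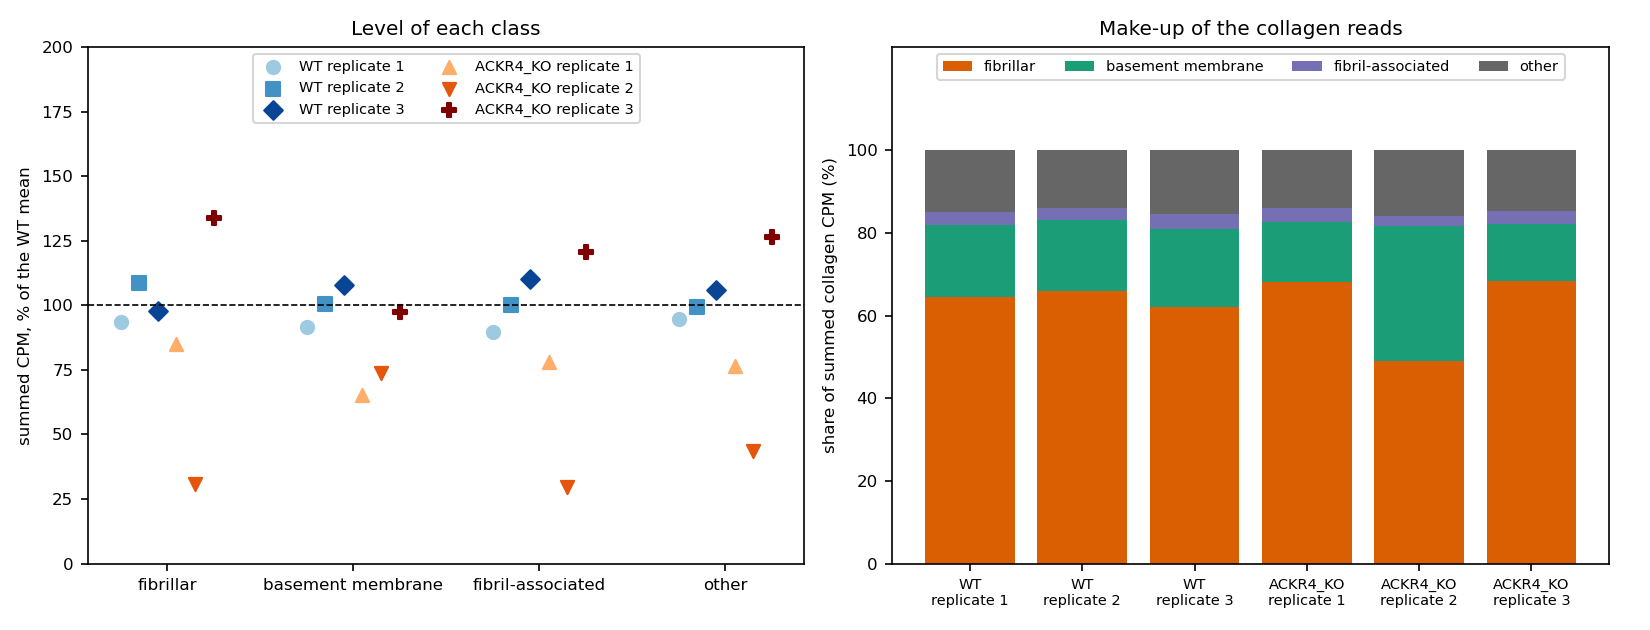
Left, summed CPM of each collagen class in each library as a percentage of the WT mean (dashed line at 100). Right, share of each class in the summed collagen CPM of each library; ACKR4_KO replicate 2 has a fibrillar level of 30.7% of the WT mean and a basement membrane level of 73.8%, so its fibrillar share falls to 48.9%.

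Summed over the 11 fibrillar chains, the level was 7965, 9222 and 8318 CPM in WT, and 7216, 2608 and 11380 CPM in ACKR4_KO. ACKR4_KO therefore spanned the WT range on both sides, with replicate 3 at 4.36 times replicate 2. Of 10 fibrillar chains tested, 7 were lower and 3 higher (median -0.12 on the log2 scale); limma-voom gave 9 lower (median -0.44). Without ACKR4_KO replicate 2, 3 of 11 were lower (median 0.29), and without replicate 3, 10 of 10 were lower (median -0.72).

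Col3a1, the type III chain of compliant fibrils, was at 3785, 4327 and 3853 CPM in WT and 3434, 1244 and 4052 CPM in ACKR4_KO. Its groups overlapped through ACKR4_KO replicate 3, and its log2 fold change, -0.45, had a standard error (SE) of 0.38. Col1a1 and Col1a2 encode the chains of type I collagen, the main fibril of a mature scar. Col1a1 was at 1549, 1836 and 1563 CPM in WT and 1425, 472 and 2870 CPM in ACKR4_KO, so both the lowest and the highest library were knockouts. Col1a2 followed the same order, at 1727, 2097 and 1895 CPM in WT and 1524, 556 and 3093 CPM in ACKR4_KO. Type I had log2 fold changes of -0.05 (SE 0.57) for Col1a1 and -0.14 (SE 0.54) for Col1a2, both within the spread between libraries. Without ACKR4_KO replicate 2 they were 0.38 and 0.28, and without replicate 3 they were -0.79 and -0.87. For Col3a1 the corresponding values were -0.088 and -0.76.

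Type V chains nucleate type I fibrils and limit their diameter. Col5a2 was at 416, 424 and 483.5 CPM in WT and 363.5, 118 and 631 CPM in ACKR4_KO, the same wide spread as type I (log2 fold change -0.25, SE 0.54). Col5a1 had a log2 fold change of -0.10 (SE 0.47), with its lowest level, 131.5 CPM, in ACKR4_KO replicate 2 and its highest, 586 CPM, in replicate 3. Leaving out replicate 2 turned Col5a2 to 0.17 and Col5a1 to 0.29, and leaving out replicate 3 gave -0.87 and -0.67. Col5a3, the remaining type V chain, did not share that order: it was at 81.6, 109 and 88.6 CPM in WT and 84.9, 69.2 and 59.7 CPM in ACKR4_KO, with replicate 3 the lowest library. Its log2 fold change was -0.38 (SE 0.17, adjusted p = 0.666 by edgeR), and the groups overlapped only through ACKR4_KO replicate 1.

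The minor fibrillar chains were low. Col24a1, of type XXIV, was at 4.67, 3.91 and 2.62 CPM in WT and 2.58, 2.25 and 2.97 CPM in ACKR4_KO (log2 fold change -0.51, SE 0.31), with overlapping groups. Col27a1, Col11a1 and Col11a2 had log2 fold changes of 0.13, 0.24 and 0.37, each with an SE between 0.39 and 0.89. Without ACKR4_KO replicate 3 these values were -0.31, -1.29 and -0.28. Col11a1, a chain of cartilage and of embryonic fibrils, was at 12.5, 9.16 and 14.3 CPM in WT and 7.92, 1.64 and 32.8 CPM in ACKR4_KO. Col2a1, the main cartilage collagen, was not tested. It had 9, 6 and 22 reads in WT and 6, 0 and 67 reads in ACKR4_KO, so 67 of its 110 reads came from ACKR4_KO replicate 3.

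The start regions of 2 of the abundant fibrillar genes, Col3a1 and Col1a2, are shown because others, such as Col1a1 and Col5a2, had no window in the promoter set used. Each is the RefSeq window on GRCm38.p6 from 250 bases before to 50 bases after the start site, printed 5′ to 3′ on the strand of the gene. Capitals mark exact matches to the CCAAT box, the TATA box (TATAAA) and the GC box (GGGCGG), searched on both strands at any position in the window. Whether a match acts as a promoter element was not tested. Col3a1 is chr1:45311288-45311587 on the plus strand and Col1a2 is chr6:4505368-4505667 on the plus strand.
Col3a1: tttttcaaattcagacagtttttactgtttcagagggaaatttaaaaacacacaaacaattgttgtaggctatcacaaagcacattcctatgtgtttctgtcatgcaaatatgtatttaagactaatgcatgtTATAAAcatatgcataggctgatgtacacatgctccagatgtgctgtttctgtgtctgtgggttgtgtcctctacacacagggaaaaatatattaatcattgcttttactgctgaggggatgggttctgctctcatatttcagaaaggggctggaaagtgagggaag
Col1a2: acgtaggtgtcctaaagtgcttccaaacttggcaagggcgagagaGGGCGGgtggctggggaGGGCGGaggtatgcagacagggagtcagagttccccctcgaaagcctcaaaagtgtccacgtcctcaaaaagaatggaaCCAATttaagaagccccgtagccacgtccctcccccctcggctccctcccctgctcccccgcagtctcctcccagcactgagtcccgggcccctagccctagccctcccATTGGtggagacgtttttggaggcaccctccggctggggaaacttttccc
The Col3a1 window held 1 TATAAA, beginning 117 bases before the start site, and none of the other motifs. The Col1a2 window held the CCAAT box 2 times, of which 1 lay on the opposite strand at the start site and is printed as its reverse complement, the GC box 2 times and no TATA box. Among all 32851 windows of this length 37.4% held the CCAAT box, 13.6% the TATA box and 35.7% the GC box. Among the 32 chains with a window, 1 window each, the numbers were 11, 5 and 21. The GC box was in 6 of 8 fibrillar, 4 of 5 basement membrane, 2 of 3 fibril-associated and 9 of 16 other windows. That of the Col4a1 window lies in bases that the Col4a2 window also holds, so this site lies in both windows.

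All 6 type IV chains of the basement membrane class had log2 fold changes below 0, with a median of -0.39. The sign was the same in all 6 without each of the 6 libraries in turn, by DESeq2, by limma-voom and with the replicate number as a block. In 5 of the 6 the groups did not overlap, so leaving out 1 library or changing the tool could hardly turn the sign. Only for Col4a2, whose groups overlapped, was that outcome open. Every one of the 6 was below all 3 WT libraries in ACKR4_KO replicate 1 and in replicate 2, and 5 of 6 in replicate 3. Of all genes tested, 30.1%, 36.0% and 34.0% lay below all WT libraries in replicates 1, 2 and 3. None passed the adjusted threshold, and the smallest adjusted p by edgeR was 0.661. The summed level was 2159, 2376 and 2541 CPM in WT and 1540, 1740 and 2293 CPM in ACKR4_KO, so the groups overlapped through replicate 3.

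Col4a1 and Col4a2 are the chains of the type IV network found in nearly all basement membranes. Col4a1 was at 1255, 1401 and 1475 CPM in WT and 864, 1053 and 1246 CPM in ACKR4_KO, without overlap but with ACKR4_KO replicate 3 close to WT replicate 1. That gave a log2 fold change of -0.39 (SE 0.19, adjusted p = 0.682 by edgeR). Col4a2 was at 813, 874 and 969 CPM in WT and 592.5, 632 and 967.5 CPM in ACKR4_KO, where replicate 3 came close to the highest WT value (log2 fold change -0.28, SE 0.21). ACKR4_KO replicate 1, and not replicate 2, was the lowest library for both.

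The other type IV chains build the networks of kidney, lung, muscle and smooth muscle. Col4a5 was at 59.4, 64.6 and 61.2 CPM in WT and 57.4, 34.9 and 53.4 CPM in ACKR4_KO (log2 fold change -0.34, SE 0.18). Col4a4 was at 16.9, 19.7 and 20.7 CPM in WT and 14.7, 13.8 and 15.2 CPM in ACKR4_KO, where the libraries differed by at most 1.10-fold. Col4a3 was at 9.03, 11.4 and 10.1 CPM in WT and 6.95, 4.92 and 8.12 CPM in ACKR4_KO. The groups did not overlap in any of these 3 chains, and the log2 fold changes of Col4a4 and Col4a3 were -0.39 (SE 0.14) and -0.61 (SE 0.22), with an edgeR adjusted p of 0.661 for each. Col4a6 averaged 5.40 ± 0.54 CPM in WT against 3.05 ± 1.72 CPM in ACKR4_KO (SD, n = 3 each), with a log2 fold change of -0.81 (SE 0.40) and no overlap.

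The 6 type IV genes lie as 3 head-to-head pairs. Col4a1 and Col4a2 share chromosome 8, Col4a3 and Col4a4 chromosome 1, where their GENCODE start sites are 72 bases apart, and Col4a5 and Col4a6 chromosome X, 1309 bases apart. The windows of the first pair are shown because the 2 genes read outwards from the same stretch of DNA. Col4a1 is chr8:11312777-11313076 on the minus strand and Col4a2 is chr8:11312555-11312854 on the plus strand, both GRCm38.p6 from RefSeq and each printed 5′ to 3′ on its own strand, with the 78 bases that both windows hold in capitals.
Col4a1: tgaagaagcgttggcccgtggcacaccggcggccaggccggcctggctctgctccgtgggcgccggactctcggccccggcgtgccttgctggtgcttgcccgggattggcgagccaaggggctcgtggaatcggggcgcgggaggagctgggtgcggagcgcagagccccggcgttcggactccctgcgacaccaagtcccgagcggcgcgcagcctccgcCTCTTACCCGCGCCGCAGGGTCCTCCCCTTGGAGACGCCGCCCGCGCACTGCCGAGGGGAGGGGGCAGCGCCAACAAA
Col4a2: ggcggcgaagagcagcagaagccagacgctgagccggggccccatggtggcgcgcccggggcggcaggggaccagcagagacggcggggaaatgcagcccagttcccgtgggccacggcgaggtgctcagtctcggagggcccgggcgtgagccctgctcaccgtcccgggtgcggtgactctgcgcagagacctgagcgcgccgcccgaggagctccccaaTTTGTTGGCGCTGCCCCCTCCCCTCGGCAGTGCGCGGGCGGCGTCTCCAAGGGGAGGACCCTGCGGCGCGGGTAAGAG
The annotated start sites of Col4a1 and Col4a2 are 21 bases apart, and their exons overlap by 22 bases on opposite strands. The strand setting of the counting is not given, so reads in those 22 bases cannot be assigned to either gene. The Col4a2 window held CCAAT beginning 32 bases before its start site, and the Col4a1 window held it on the opposite strand 145 bases before its own.

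The summed level of the fibril-associated chains was 391, 436 and 481 CPM in WT and 341, 130.1 and 526 CPM in ACKR4_KO, so replicate 3 was 4.04 times replicate 2, close to the 4.36 of the fibrillar class. Of the 6 tested, 4 were lower. Col14a1, on the surface of type I fibrils, was at 210.1, 233 and 243 CPM in WT and 216, 80.5 and 264 CPM in ACKR4_KO (log2 fold change -0.29, SE 0.39). Col16a1 was at 111, 126 and 138 CPM in WT and 84.96, 34.2 and 156 CPM in ACKR4_KO (log2 fold change -0.45, SE 0.49). In both chains ACKR4_KO replicate 2 was the lowest and replicate 3 the highest library. Leaving out replicate 2 gave 0.074 for Col14a1 and -0.053 for Col16a1, and leaving out replicate 3 gave -0.62 and -1.06.

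Col12a1, a fibril-associated chain of tendon and of strained tissue, was at 55.9, 63.1 and 85.3 CPM in WT and 31.6, 10.96 and 85.02 CPM in ACKR4_KO. The log2 fold change of -0.68 (SE 0.67) was -1.66 without ACKR4_KO replicate 3 and -0.22 without replicate 2. Col9a2, a chain of the cartilage collagen type IX, was at 5.21, 5.66 and 5.79 CPM in WT and 2.91, 0.922 and 14.0 CPM in ACKR4_KO, where replicate 3 was 15.2 times replicate 2. Its log2 fold change of 0.10 (SE 0.83) turned to -1.49 without ACKR4_KO replicate 3 and was 0.60 without replicate 2.

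Col22a1, a fibril-associated chain known from the junctions between muscle and tendon, had the largest fold change of the tested chains. It was at 7.16, 6.38 and 6.89 CPM in WT and 1.94, 1.44 and 4.63 CPM in ACKR4_KO, so every knockout library lay below every WT library. Its log2 fold change was -1.34 (SE 0.40), a 2.54-fold lower level, with an adjusted p of 0.611 by edgeR and 0.257 by DESeq2. It was between -1.99 and -1.06 with each library left out in turn. Markers of fast skeletal muscle, which carries such junctions, moved between the WT libraries: Mylpf was at 1.71, 26.7 and 35.5 CPM in WT and between 0.524 and 2.77 CPM in ACKR4_KO. Of the 8 listed genes tested, 7 were lower in ACKR4_KO, with a median of -3.25 on the log2 scale. At an unadjusted p under 0.05 by edgeR 5 of them were lower, against 3.64% of all genes. The list of 10 summed to between 1545 and 2100 CPM in WT and between 1221 and 2545 CPM in ACKR4_KO, most of it from Acta1 and Ckm, which heart muscle also expresses. The part of skeletal muscle in the Col22a1 values was not tested. The remaining fibril-associated chains were Col20a1, at between 1.09 and 2.58 CPM in the 6 libraries, whose exons share 79 bases with BX649560.1 on the same strand, and Col9a3, with 45 reads in all and not tested.

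Among the other chains, type VI collagen forms beaded filaments that anchor cells to the matrix around them. Col6a2 was at 416.5, 469 and 452 CPM in WT and 360.3, 204.5 and 565 CPM in ACKR4_KO, and Col6a1 was at 408, 454 and 447 CPM in WT and 379.8, 203.5 and 536 CPM in ACKR4_KO. Their log2 fold changes were -0.24 (SE 0.32) and -0.23 (SE 0.31). Both followed the order of type I, but the ACKR4_KO libraries differed 2.76-fold in Col6a2 and 2.64-fold in Col6a1, against 6.09-fold in Col1a1. Without replicate 2 the values were 0.056 and 0.073, and without replicate 3 they were -0.65 and -0.58. Col6a3 had a log2 fold change of -0.29 (SE 0.29). Col6a5 and Col6a6, which lie 27.9 kb apart on chromosome 9, did not follow that order and were lowest in ACKR4_KO replicate 3, at 1.57 and 4.89 CPM.

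The multiplexins lie in the zone between basement membrane and surrounding matrix, and their tail fragments are known as restin and endostatin. Col15a1 was at 352, 380.5 and 429 CPM in WT and 259, 215 and 470 CPM in ACKR4_KO (log2 fold change -0.30, SE 0.28). Col18a1 had a log2 fold change of -0.44 (SE 0.32), and ACKR4_KO replicate 3, at 99.95 CPM, was its highest library. Unlike the type IV chains, both multiplexins exceeded every WT library in ACKR4_KO replicate 3. Their fold changes were -0.084 for Col15a1 and -0.17 for Col18a1 without replicate 2, and -0.70 and -0.89 without replicate 3.

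Type VIII collagen is a short-chain network of vessel walls and of injured tissue. Col8a1 was at 305, 246 and 328 CPM in WT and 196.5, 71.7 and 497 CPM in ACKR4_KO (log2 fold change -0.20, SE 0.63). Col8a2 was at 74.5, 72.1 and 93.0 CPM in WT and 39.2, 10.2 and 61.3 CPM in ACKR4_KO, so that here the groups did not overlap and even replicate 3 lay below the lowest WT library. It had a log2 fold change of -1.11 (SE 0.56, adjusted p = 0.691 by edgeR). Without replicate 2 Col8a1 was at 0.24 and Col8a2 at -0.67 on the log2 scale, and without replicate 3 they were at -1.12 and -1.67. The 2 type VIII chains therefore differed in ACKR4_KO replicate 3, where Col8a1 was the highest of the 6 libraries and Col8a2 was below every WT library.

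The membrane-bound and rare chains were low throughout. Col13a1, a transmembrane collagen, was at 4.28, 4.22 and 3.58 CPM in WT and 3.23, 3.28 and 1.57 CPM in ACKR4_KO (log2 fold change -0.58, SE 0.33), without overlap. Col28a1, a chain known from Schwann cells, was at 4.67, 3.40 and 6.13 CPM in WT and 3.23, 3.07 and 3.84 CPM in ACKR4_KO (log2 fold change -0.49, SE 0.29), with overlap. Markers of Schwann cells were lower in 4 of 7 tested and summed to between 38.2 and 50.1 CPM in WT and between 28.7 and 37.6 CPM in ACKR4_KO, with Pmp2 at 0 in all libraries, and their part in the Col28a1 values was not tested. Col7a1, the anchoring fibril, had 37, 22 and 38 reads in WT and 17, 4 and 78 reads in ACKR4_KO. Col26a1 had a log2 fold change of 0.75 (SE 0.77), which was -0.45 without ACKR4_KO replicate 3, and Col23a1 of -0.23 (SE 0.40). Col25a1, Col17a1 and Col10a1 had 46, 16 and 12 reads in all and were not tested.

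**Figure D3:**
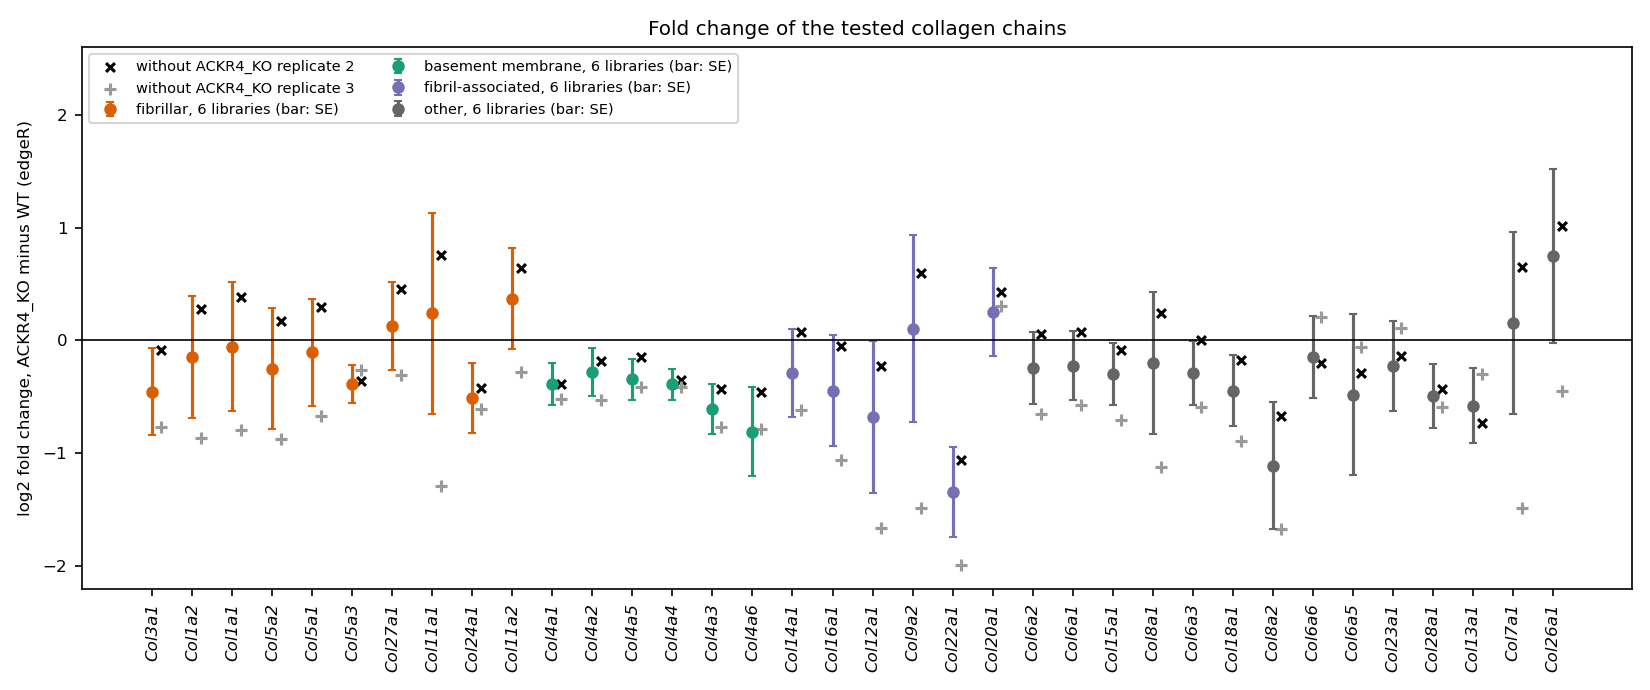
Log2 fold change, ACKR4_KO minus WT, of the 36 tested chains by edgeR with its standard error, and the values without ACKR4_KO replicate 2 (crosses) and without replicate 3 (plus signs). The 6 basement membrane chains are below 0 in all 3 fits, while 3 of the 10 fibrillar chains are above 0 with all libraries and 7 of the same 10 without replicate 2. For the 5 basement membrane chains whose groups did not overlap, leaving out 1 library could hardly turn the sign.

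Ratios of chains within a library do not depend on how libraries are scaled, and 6 were set. Col1a1 to Col1a2, whose products join 2 to 1 in the type I helix, had read ratios of 0.897, 0.876 and 0.825 in WT and 0.935, 0.848 and 0.928 in ACKR4_KO. The 2 chains of type I thus kept close to each other in libraries whose Col1a1 level differed 6.09-fold. Col6a1 to Col6a2 was also narrow, at 0.980, 0.968 and 0.988 in WT and 1.05, 0.995 and 0.949 in ACKR4_KO. Col5a1 to Col1a1 ranged from 0.204 in ACKR4_KO replicate 3 to 0.279 in ACKR4_KO replicate 2.

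Other ratios separated single libraries. Col1a1 to Col3a1, the balance of type I and type III, was 0.409, 0.424 and 0.405 in WT and 0.415, 0.379 and 0.708 in ACKR4_KO, so that 5 libraries lay within a narrow band and ACKR4_KO replicate 3 stood above it. Col4a1 to Col4a2 was 1.54, 1.60 and 1.52 in WT and 1.46, 1.67 and 1.29 in ACKR4_KO, with replicate 3 lowest. Col4a1 to Col1a1 was 0.810, 0.763 and 0.944 in WT and 0.606, 2.23 and 0.434 in ACKR4_KO, so the knockout libraries lay on both sides of WT. By an exact permutation test, taken in both directions, of the log2 ratios, which cannot go below p = 0.1 with 3 against 3, no ratio passed. The exact p-values were 0.3 for Col1a1 to Col1a2, 0.8 for Col1a1 to Col3a1, 0.9 for Col5a1 to Col1a1, 0.5 for Col4a1 to Col4a2, 1 for Col4a1 to Col1a1 and 0.7 for Col6a1 to Col6a2, and each was 1 after Benjamini-Hochberg adjustment over the 6.

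**Figure D4:**
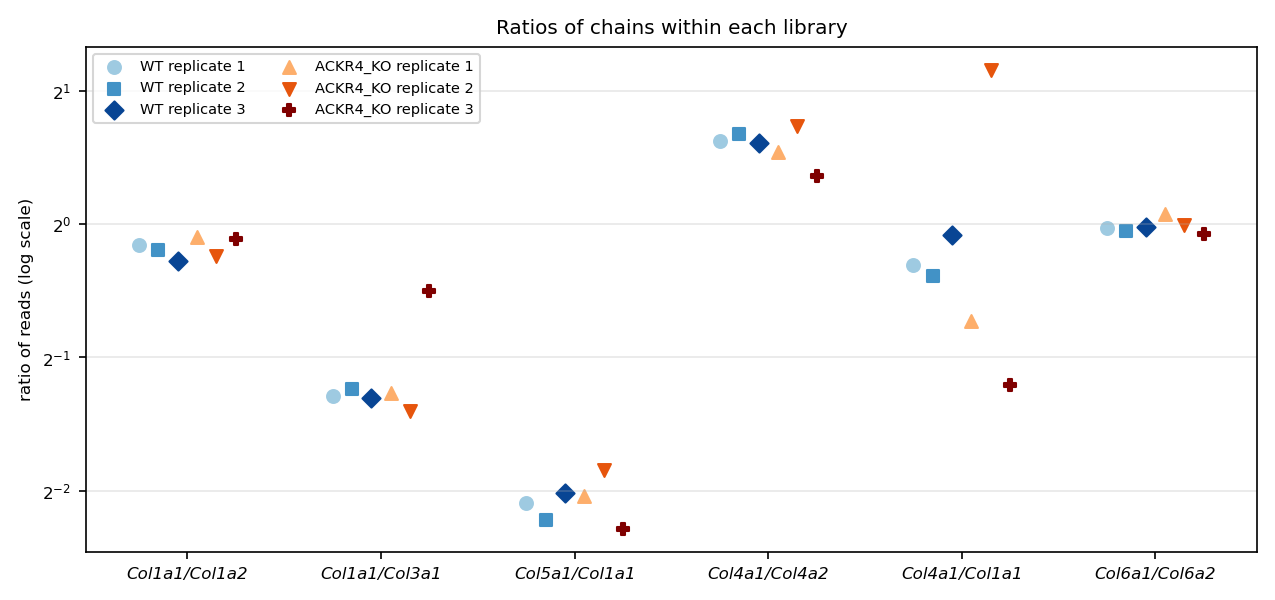
Ratio of the reads of 2 chains within each library, on a log scale, for 6 pairs. Col1a1/Col1a2 and Col6a1/Col6a2 lie in narrow bands, ACKR4_KO replicate 3 stands at 0.708 in Col1a1/Col3a1, and ACKR4_KO replicate 2 stands at 2.23 in Col4a1/Col1a1.

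Genes that modify, export, cleave, crosslink, degrade and sense collagen were taken from 4 lists, and edgeR and DESeq2 called no member at the adjusted threshold. At an unadjusted p under 0.05 by edgeR each list had 1 member, all lower in ACKR4_KO, where 3.64% of all genes were lower and 3.81% higher. Hydroxylation, folding and export genes were lower in 8 and higher in 11 of 19, with a median log2 fold change of 0.03. The smallest p-values there belonged to P3h2, P4ha2 and Colgalt2, with log2 fold changes of -0.54, 0.35 and -0.27. P3h2 is a prolyl 3-hydroxylase that acts on type IV collagen, and it was at 12.5, 13.1 and 14.0 CPM in WT and 11.6, 6.56 and 8.90 CPM in ACKR4_KO, without overlap. Serpinh1, which encodes the collagen chaperone HSP47, was at 507, 618 and 540 CPM in WT and 434, 574 and 709 CPM in ACKR4_KO, so ACKR4_KO replicate 2 was not low in it.

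Procollagen cleavage and crosslinking genes were lower in 8 of 12 tested, with a median of -0.12. Pcolce2, an enhancer of procollagen C-proteinase, was at 56.9, 68.7 and 68.2 CPM in WT and 46.4, 31.7 and 38.1 CPM in ACKR4_KO, without overlap. Its log2 fold change was -0.74 (SE 0.16) with an adjusted p of 0.606 by edgeR, 0.0618 by DESeq2 and 0.0331 by edgeR without the filter on low counts, the one setting in which it passed. The lysyl oxidase Lox followed the fibrillar chains, at 164, 149 and 190.2 CPM in WT and 156, 39.8 and 325 CPM in ACKR4_KO; it was chosen after its values were seen. Adamts2 and Adamts3, which remove the amino-terminal propeptide, had log2 fold changes of -0.53 (SE 0.37) and 0.51 (SE 0.40).

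Breakdown and uptake genes were lower in 9 of 9 tested, with a median of -0.35. Mmp2, a gelatinase that also cleaves type IV collagen, was at 577, 615 and 639.5 CPM in WT and 439.9, 241 and 394 CPM in ACKR4_KO (log2 fold change -0.77, SE 0.22, adjusted p = 0.606 by edgeR), without overlap. Timp1 and Ctsk, a metalloproteinase inhibitor and a collagen-degrading cathepsin, had log2 fold changes of -0.56 and -0.35. Collagen receptors were lower in 7 of 9 tested, with a median of -0.18. Itga2, the alpha chain of a collagen-binding integrin, had a log2 fold change of -0.72 (SE 0.28), Itga1 of -0.18 and Itga11 of -0.45, and none passed.

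Markers of the cell types that make collagen were set beside these levels. Cardiomyocyte markers were higher in 9 of 10, with sums of 35680, 39170 and 30410 CPM in WT and 38090, 53560 and 46770 CPM in ACKR4_KO. Fibroblast markers other than collagens were lower in 9 of 10, with sums of 6837, 7238 and 7565 CPM in WT and 6587, 4728 and 4874 CPM in ACKR4_KO. ACKR4_KO replicates 2 and 3 were thus alike in the fibroblast sum, while their fibrillar collagen differed 4.36-fold. By gene they were not alike: in replicate 2, 10 of the 10 markers lay below every WT library, and in replicate 3, 6 lay below and 4 above. Of all genes tested, 36.0% lay below in replicate 2, and in replicate 3 34.0% lay below and 34.2% above. Postn, a matricellular gene of activated fibroblasts, was at 294 and 2303 CPM in replicates 2 and 3, against 1066 to 1379 CPM in WT. Gsn, a gene of resting fibroblasts, was at 2784 and 911 CPM there, against 3024 to 3307 CPM in WT. In bulk tissue, fewer cells of a type and less RNA per cell cannot be told apart, and the part of these cell types in the collagen values was not tested.

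Endothelial markers were lower in 9 of 10, with sums between 2278 and 2514 CPM in WT and of 1918, 2477 and 1750 CPM in ACKR4_KO. Mural cell markers, of pericytes and smooth muscle, were lower in 7 of 10, with sums between 3546 and 4220 CPM in WT and between 3430 and 4607 CPM in ACKR4_KO. Des, which cardiomyocytes also express, was the largest part of the mural sum, at 2885 CPM in ACKR4_KO replicate 2. In ACKR4_KO replicates 1, 2 and 3, 9, 1 and 10 of the 10 endothelial markers and 6, 6 and 5 of the 10 mural markers lay below every WT library. Of all genes tested, 30.1%, 36.0% and 34.0% did. Endothelial and mural cells are known sources of type IV collagen, and their part in the type IV values was not tested. Lung epithelial markers summed to 266, 43.1 and 128 CPM in WT and to between 0.404 and 1.92 CPM in ACKR4_KO, and 7 of 7 tested were lower and passed by DESeq2 (background 0.234%). Lung tissue also expresses Col4a3 and Col4a4. The part of lung tissue in their values was not tested.

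Cartilage markers other than collagens were lower in 6 of 6 tested, with sums of 32.7, 27.6 and 35.2 CPM in WT and 26.4, 9.73 and 39.3 CPM in ACKR4_KO. Acan, the cartilage proteoglycan aggrecan, was at 12.7 CPM in ACKR4_KO replicate 3 and between 1.13 and 6.96 CPM in the other libraries, and Sox9, a cartilage transcription factor, was also highest there, at 21.2 CPM. Of the 10 listed genes, 4 lay above and 3 below every WT library in that replicate, near the 34.2% above and 34.0% below of all genes tested. Among those below were Cnmd at 0.349 CPM and Epyc at 0.175 CPM, and Snorc was at 0 in all 6. The highest levels of Col2a1, Col9a2, Col11a1 and Col11a2 were in that same library, and the part of cartilage-like cells in them was not tested. Markers of keratinised epithelium included Krt5 at 0 in all libraries and Krt14 at no more than 0.565 CPM, beside Col17a1 and Col7a1, which such epithelium makes. The 2 members tested had log2 fold changes above 0, Krt10 of 0.29 and Perp of 0.16. Krt10 was highest in ACKR4_KO replicate 3, at 5.59 CPM against 1.45 to 2.48 CPM elsewhere, the library with the highest Col7a1. Of the 8 listed genes, 2 lay above every WT library in that replicate and 1, Trp63 at 0.262 CPM, below. Of all genes tested, 34.2% lay above and 34.0% below there. The 8 listed genes summed to between 128 and 152 CPM in WT and between 142 and 181 CPM in ACKR4_KO, nearly all from Perp, and their part in the collagen values was not tested. Mesothelial and epicardial markers summed to between 27.0 and 61.2 CPM in WT and between 23.6 and 70.4 CPM in ACKR4_KO.

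**Figure D5:**
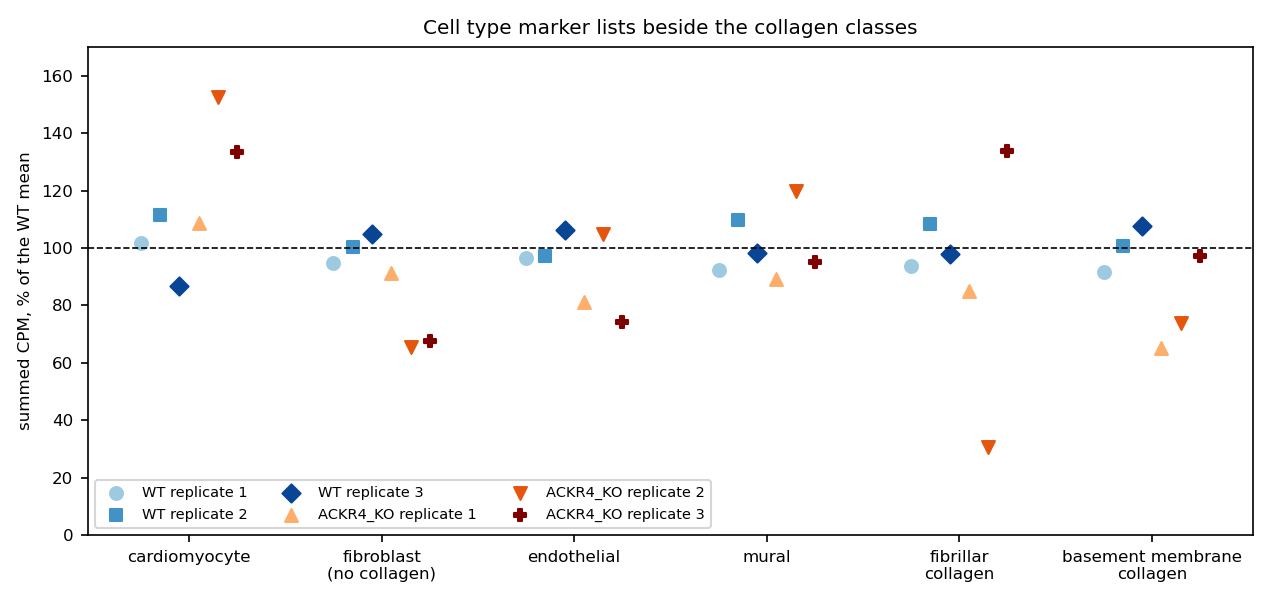
Summed CPM of 4 cell type marker lists and 2 collagen classes in each library, as a percentage of the WT mean (dashed line at 100). ACKR4_KO replicates 2 and 3 are both above WT for cardiomyocyte markers and below it for fibroblast markers, while their fibrillar collagen lies at 30.7% and 134% of the WT mean.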

How the data were processed

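Heart RNA was sequenced in 6 libraries, 3 WT and 3 ACKR4_KO. The authors deposited raw read counts per gene, made with CASAVA 1.8.2, HISAT2 and HTSeq 0.6.0 on mm10, per the submitters' processing notes. Their annotation release and strand setting were not given in the sources used here.

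Symbols were found for 54409 of 54532 rows. Coordinates and lengths came from GENCODE M21 on GRCm38, and promoter windows from RefSeq. Genes were kept with filterByExpr of edgeR 4.0.16 (minimum count 10, minimum total 15), which left 14406. ACKR4_KO and WT were compared by edgeR (robust quasi-likelihood fit, TMM scaling), p-values were adjusted by Benjamini-Hochberg over those 14406 genes at a threshold of 0.05, and the script was checked on simulated data. A standard error is the size of the log2 fold change over the square root of F. DESeq2 1.42.0 and limma 3.58.1 (voom) were alternatives, in R 4.3.3, together with other scalings and filters, the replicate block and each library left out. No 2 libraries agreed within counting noise (smallest chi-square per degree of freedom, 8.09).

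Chains named with values in every library are, in each class, the 4 of highest level and the 3 of smallest p. In the other lists they are the members of smallest p. Others, such as Col4a6, Serpinh1 and Postn, were named after their values were seen. The members and lists were chosen with earlier results of these data known. Of 20 hydroxylation, folding and export genes, 19 were found by symbol.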

Additional observations from a re-analysis of the deposited data

How the results depend on the processing

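No collagen chain passed an adjusted p of 0.05 by DESeq2, limma-voom, the other scalings and filters, the replicate block or with any library left out. Over all genes the count of 0 by edgeR became 41 with DESeq2, 24 without the filter on low counts and 6 with the replicate block, and 0 to 1 with each library left out. Without the filter, 1 procollagen cleavage and crosslinking gene, Pcolce2, passed. Chains at an unadjusted p under 0.05 numbered 4 as reported, 6 with limma-voom, 7 without the filter, 6 with the replicate block and 1 to 15 with a library left out. Over all genes the counts at that level were 1073 of 14406 as reported and 1082 of 14406 with limma-voom. They were 1521 of 25472 without the filter and 1035 of 14406 with the replicate block. The fit with 15 chains, without ACKR4_KO replicate 3, had 1846 of 14756 genes there. The share of chains that were lower moved from 80.6% to 91.7% with limma-voom, and to between 52.6% and 91.9% with a library left out. The log2 fold change of Col9a2 turned to -0.64 with limma-voom and -0.46 with the replicate block. With each library left out it ranged from -1.49 to 0.60 for Col9a2, -0.79 to 0.38 for Col1a1, -0.87 to 0.28 for Col1a2, -0.87 to 0.18 for Col5a2, -0.62 to 0.074 for Col14a1, -0.65 to 0.056 for Col6a2, -0.58 to 0.073 for Col6a1 and -1.12 to 0.24 for Col8a1. List medians ranged from -0.22 to 0.095 for hydroxylation, folding and export, -0.65 to 0.18 for cleavage and crosslinking and -0.68 to -0.25 for breakdown and uptake. The log2 difference of class levels, with each library left out, ranged from -0.79 to 0.13 for fibrillar, -0.52 to -0.23 for basement membrane, -0.89 to -0.0092 for fibril-associated and -0.74 to 0.019 for other chains, so the fibrillar and other classes turned without ACKR4_KO replicate 2. For scale, the SD of the summed fibrillar level was 649 CPM within WT and 4387 CPM within ACKR4_KO. Division by coding length was chosen after seeing the data. The log2 difference between groups, with each library left out, ranged from -0.058 to 0.39 for Col1a1/Col3a1, -0.056 to 0.17 for Col5a1/Col1a1, -0.18 to 0.0015 for Col4a1/Col4a2, -0.70 to 0.48 for Col4a1/Col1a1 and -0.011 to 0.065 for Col6a1/Col6a2. The cause of these changes was not tested. Same-numbered libraries deviated together with correlations across genes of 0.067, 0.053 and 0.125, and 5 of 6 libraries correlated best with their own number. These weak correlations do not settle whether the numbers pair the samples. The labels name no pairs, so the main fit took the samples as unpaired, with the replicate block as an alternative. The small number of libraries and the spread within ACKR4_KO limit the precision of every fold change.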
